A study of Mus musculus with 8 samples.

Results

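The 8 genes described here, Srebf2, Insig1, Hmgcs1, Idi1, Fdps, Sqle, Lss and Dhcr7, control or carry out cholesterol synthesis. They were chosen as the probes whose gene symbol in the platform annotation is exactly one of these names. All 8 were found, each with a single probe, among 16504 genes with a probe of 1 symbol. The working name of the set also speaks of sterol uptake, but all its members act in synthesis or its control, so it is called here the sterol-regulated synthesis set. The RNA came from epididymal adipose tissue, the visceral fat around the epididymis, of polygenic obese mice, a model in which obesity rests on many genes rather than on 1 mutation. Animals fed conjugated linoleic acid (CLA), a group of linoleic acid isomers used as a dietary supplement against fat gain, were compared with animals fed linoleic acid (LA). Each of the 8 arrays had 2 channels and set a pool of 4 or 5 samples from CLA-fed animals against such a pool from LA-fed animals, 4 arrays at day 14 and 4 at day 5 of the trial. On both days the CLA pool was labelled with Cy5 on arrays 1 and 2 and with Cy3 on arrays 3 and 4. The sources used here do not give strain, age or dose, nor whether arrays share a pool. Sex is not stated as such, but epididymal fat is taken from males. Since samples were pooled and pools may recur, a p-value here reflects the variation among these arrays alone, which may be technical.

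Every value below is a log2 ratio read as CLA over LA, so a positive value means a higher level in CLA-fed tissue. That direction is likely, not stated. The labels give the dyes but not the numerator, and the reading takes the treated channel over the control and the deposited ratios as already turned to a common direction. An earlier look at these data, in which that reading was taken, also had the sign of the Ucp1 ratios at day 14 in view. Across all genes, arrays of opposite dyes within a day correlated negatively (median r −0.36, −0.61 to 0.03, over 8 pairs), whereas arrays of the same dyes correlated positively (median r 0.47, 0.22 to 0.72, over 4 pairs). For that reason values with arrays 3 and 4 turned are also given for the members and the gene lists. The deposited ratios were treated as log10 values, a unit inferred from the numbers themselves, and multiplied by 3.32. A ratio carries no absolute level, so the tissue could not be checked against the abundance of adipocyte transcripts. The number of arrays limits the precision, and in whole tissue fewer cells of a type and less RNA per cell cannot be told apart.

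Cells make cholesterol from acetyl-CoA through the mevalonate pathway, which runs over isoprenoid diphosphates to squalene, and then through ring closure and a chain of sterol intermediates. Transcription of these enzymes is driven mainly by SREBP-2, a factor that is held in the endoplasmic reticulum membrane while sterols are plentiful and is released by cleavage when they are scarce. Adipose tissue stores much free cholesterol in its lipid droplets, and most of that cholesterol is taken up from lipoproteins rather than made in place.

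Promoters are shown for the 3 genes that rose at day 14 and for Hmgcs1, the only matched member with the sterol regulatory element as spelled. Those of Idi1 and Srebf2 are not shown, and for Dhcr7 the promoter with NF-Y boxes is shown. SREBP-2 is known to act with NF-Y at promoters of this pathway. The sequences are from RefSeq (GRCm38.p6) and span 250 bases before to 50 bases after a transcript start, 300 bases in all, on the + strand. Capitals mark letters of the sterol regulatory element TCACNCCAC and of the NF-Y box CCAAT, each searched on both strands (CCAAT reads ATTGG on the other strand).
Insig1, chr5:28071162-28071461: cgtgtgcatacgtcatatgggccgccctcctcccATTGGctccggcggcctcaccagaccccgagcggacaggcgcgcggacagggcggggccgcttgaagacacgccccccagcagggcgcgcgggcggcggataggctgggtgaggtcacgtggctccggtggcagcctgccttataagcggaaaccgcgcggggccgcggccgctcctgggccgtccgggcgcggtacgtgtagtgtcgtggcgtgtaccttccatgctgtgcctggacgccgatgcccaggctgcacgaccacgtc
Lss, chr10:76531355-76531654: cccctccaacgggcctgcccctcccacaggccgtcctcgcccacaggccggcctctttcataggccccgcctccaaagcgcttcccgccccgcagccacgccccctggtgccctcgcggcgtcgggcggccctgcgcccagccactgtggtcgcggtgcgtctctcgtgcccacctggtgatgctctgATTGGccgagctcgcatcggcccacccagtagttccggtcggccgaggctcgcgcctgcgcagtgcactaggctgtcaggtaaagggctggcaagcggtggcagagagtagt
Dhcr7, chr7:143829964-143830263: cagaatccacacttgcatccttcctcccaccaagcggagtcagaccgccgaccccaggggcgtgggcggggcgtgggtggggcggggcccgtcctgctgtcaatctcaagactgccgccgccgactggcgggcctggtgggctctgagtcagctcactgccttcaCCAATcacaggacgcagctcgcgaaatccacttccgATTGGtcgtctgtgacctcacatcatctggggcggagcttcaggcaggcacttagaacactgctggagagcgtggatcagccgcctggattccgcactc
Hmgcs1, chr13:119690101-119690400: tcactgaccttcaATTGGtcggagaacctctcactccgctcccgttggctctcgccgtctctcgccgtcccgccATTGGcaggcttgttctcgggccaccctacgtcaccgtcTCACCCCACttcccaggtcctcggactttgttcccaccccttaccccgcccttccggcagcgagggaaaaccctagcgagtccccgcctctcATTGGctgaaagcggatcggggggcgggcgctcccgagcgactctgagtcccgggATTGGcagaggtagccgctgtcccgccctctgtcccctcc
Of the 6 members matched in the promoter table, only Hmgcs1 held the sterol regulatory element as spelled, with TCACCCCAC at −137 from its start. Of all 27025 genes in the table, 1.44% held these letters in any promoter of the same length, and of all 32851 promoters 1.24%. The NF-Y box was found in at least 1 promoter of all 6 matched members, against 41.1% of all genes and 37.4% of all promoters, with 4 matches for Hmgcs1, 2 for the Dhcr7 promoter shown, 1 each for Insig1 and Lss, 2 for Idi1 and 1 for Srebf2. Dhcr7 has 3 promoters in the table, and the other 2 held no NF-Y box. The GC box GGGCGG, not capitalised, was also found in all 6, against 38.2% of all genes and 35.7% of all promoters. No match of one motif overlapped a match of another in these promoters. A match describes the letters in the window and is not a binding site, and the absence of a match says nothing about SREBP-2 at these genes.

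At day 14, Dhcr7, Insig1 and Lss rose by 2.97-fold, 2.39-fold and 2.03-fold in CLA-fed tissue, and no member fell. These calls come from limma on the 4 day 14 arrays with a dye term, at an adjusted p under 0.05 over all 16504 genes. Of all genes, 0.533% rose and 1.04% fell by this rule, against 3 of 8 and 0 of 8 members. The set and the fit of each day alone were chosen with earlier results known, so these shares are a description. At an unadjusted p under 0.05, 6 of the 8 members were higher and 0 were lower, whereas 7.46% of all genes were higher and 11.7% lower. Above 0 on all 4 day 14 arrays were 4 members, Insig1, Sqle, Lss and Dhcr7, against 6.3% of all genes. The medians of all genes on single arrays were −0.010, −0.000, 0.015 and −0.001 on day 14 arrays 1 to 4, and −0.002, −0.002, −0.060 and −0.008 on day 5 arrays 1 to 4.

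**Figure D1:**
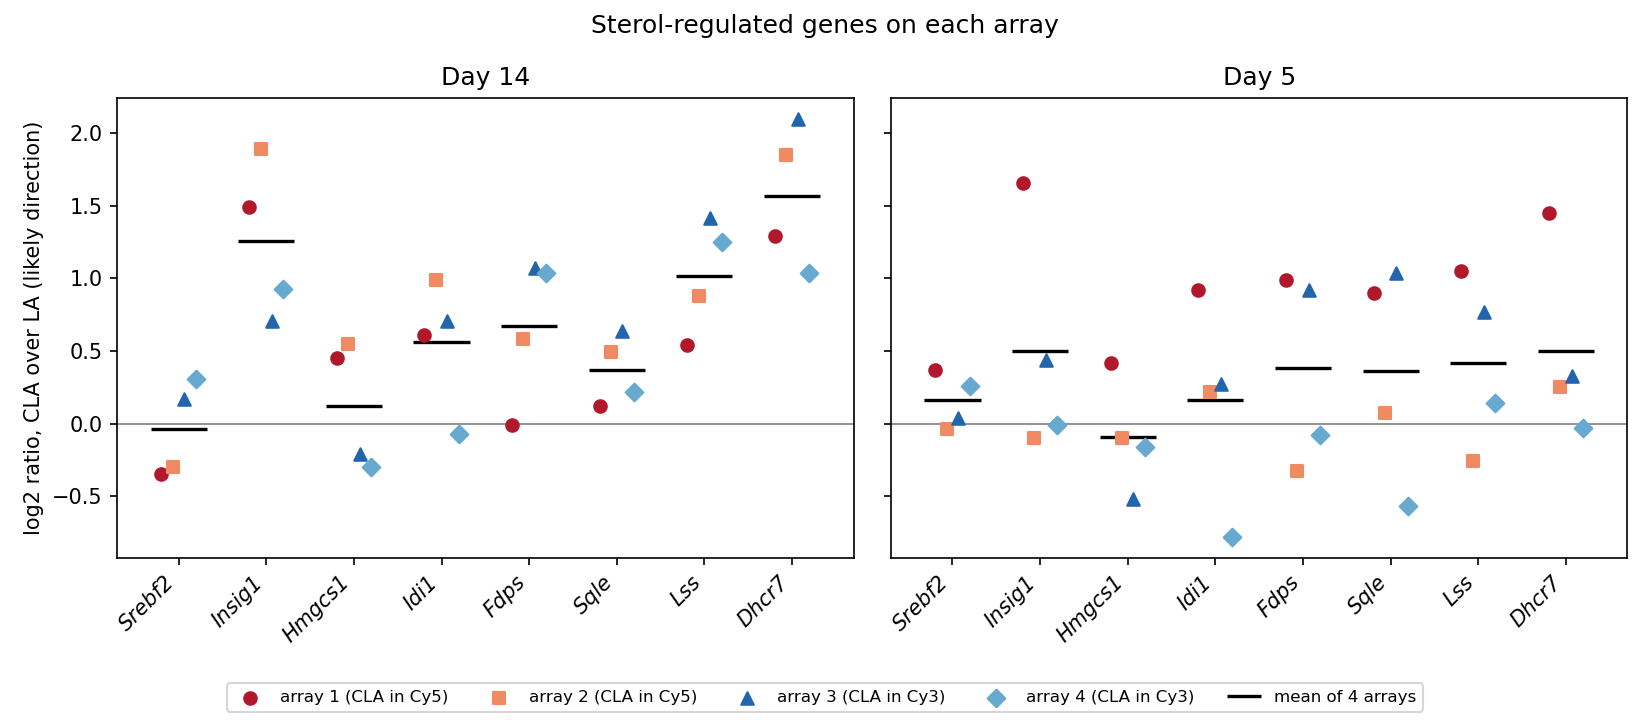
Log2 ratio of CLA over LA (vertical axis, likely direction) for each of the 8 genes on each array, with day 14 on the left and day 5 on the right. Points are single arrays, shaped and coloured by array and dye, and bars are means of 4 arrays. Dhcr7, Insig1, Lss and Sqle lie above 0 on all 4 day 14 arrays, and no gene lies above 0 on all 4 day 5 arrays.

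Srebf2 encodes SREBP-2 itself. Its log2 ratios were −0.35, −0.30, 0.17 and 0.31 on day 14 arrays 1 to 4, a mean of −0.04 ± 0.33 (SD, n = 4), and 0.37, −0.04, 0.04 and 0.26 on day 5 arrays 1 to 4, a mean of 0.16 ± 0.19 (SD, n = 4). On day 14 both arrays with CLA in Cy5 were below 0 and both arrays with CLA in Cy3 were above it. The day 14 mean had a 95% interval of −0.22 to 0.13 and an adjusted p of 0.775 (limma), so the transcript of the pathway's own activator did not pass the test on this reading of the ratios.

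Insig1 encodes an endoplasmic reticulum protein that holds back SREBP when sterols are plentiful, and its gene is itself an SREBP target. Its log2 ratios were 1.49, 1.89, 0.71 and 0.93 on day 14 arrays 1 to 4, with a mean of 1.26 ± 0.54 (SD, n = 4). On day 5 arrays 1 to 4 they were 1.66, −0.10, 0.44 and −0.01, with a mean of 0.50 ± 0.81 (SD, n = 4). All 4 day 14 arrays were high, with those that carried CLA in Cy5 above those that carried it in Cy3. Array 1 alone was as high among the day 5 arrays, and the ranges of the days overlapped. Fitted over the day 14 arrays, Insig1 rose by 1.26 ± 0.10 (SE) on the log2 scale, with a 95% interval of 1.02 to 1.50 and an adjusted p of 0.0206 (limma).

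Hmgcs1 encodes the cytosolic HMG-CoA synthase, which acts early in the mevalonate pathway. It had log2 ratios of 0.45, 0.55, −0.21 and −0.30 on day 14 arrays 1 to 4 and of 0.42, −0.10, −0.52 and −0.16 on day 5 arrays 1 to 4. The arrays split by dye at day 14, with both Cy5 arrays above 0 and both Cy3 arrays below it. The means were 0.12 ± 0.44 at day 14 and −0.09 ± 0.39 at day 5 (SD, n = 4 each), and the day 14 mean did not pass the test (95% interval −0.05 to 0.30, adjusted p = 0.394, limma).

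Idi1 encodes isopentenyl diphosphate isomerase, which supplies the starter unit for isoprenoid chains. Its log2 ratios were 0.61, 0.99, 0.71 and −0.07 on day 14 arrays 1 to 4, and 0.92, 0.22, 0.27 and −0.78 on day 5 arrays 1 to 4. Array 4 was the lowest on both days. The day 14 mean of 0.56 ± 0.45 and the day 5 mean of 0.16 ± 0.70 (SD, n = 4 each) overlapped in range, and the adjusted p at day 14 was 0.137 (limma).

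Fdps encodes farnesyl diphosphate synthase, at the branch point between sterols and other isoprenoids. It had log2 ratios of −0.01, 0.58, 1.07 and 1.04 on day 14 arrays 1 to 4, against 0.99, −0.33, 0.92 and −0.08 on day 5 arrays 1 to 4. At day 14 the arrays with CLA in Cy3 were the higher pair, and array 1 was at −0.01, next to equality. With a mean of 0.67 ± 0.50 (SD, n = 4), Fdps stood just outside the threshold at day 14 (SE 0.11, adjusted p = 0.0567, limma), and its day 5 mean was 0.38 ± 0.68 (SD, n = 4).

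Sqle encodes squalene epoxidase, the first oxygen-requiring step of the sterol branch. Its log2 ratios were 0.12, 0.49, 0.64 and 0.22 on day 14 arrays 1 to 4, and 0.90, 0.07, 1.04 and −0.57 on day 5 arrays 1 to 4. The day 14 values were small and all above 0, whereas the day 5 values held both the highest and the lowest of the 8 arrays. The means were almost equal, 0.37 ± 0.24 at day 14 and 0.36 ± 0.76 at day 5 (SD, n = 4 each), and neither passed the test (adjusted p = 0.166 at day 14 and 0.818 at day 5, limma).

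Lss encodes lanosterol synthase, which closes the sterol ring system. Its log2 ratios were 0.54, 0.88, 1.42 and 1.25 on day 14 arrays 1 to 4, with a mean of 1.02 ± 0.39 (SD, n = 4). On day 5 arrays 1 to 4 they were 1.05, −0.26, 0.77 and 0.14, with a mean of 0.42 ± 0.59 (SD, n = 4). All day 14 arrays were above 0, the Cy3 pair higher than the Cy5 pair, the reverse of the order seen for Insig1. Lss rose at day 14 by 1.02 ± 0.09 (SE) on the log2 scale, with a 95% interval of 0.80 to 1.24 and an adjusted p of 0.0237 (limma).

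Dhcr7 encodes 7-dehydrocholesterol reductase, the last step of the Kandutsch-Russell route to cholesterol. It had log2 ratios of 1.29, 1.85, 2.10 and 1.04 on day 14 arrays 1 to 4, with a mean of 1.57 ± 0.49 (SD, n = 4). On day 5 arrays 1 to 4 they were 1.45, 0.25, 0.33 and −0.03, with a mean of 0.50 ± 0.65 (SD, n = 4). The day 14 arrays were high in both dye orientations, each pair averaging 1.57, and the range of day 5 overlapped through its array 1. At day 14 Dhcr7 rose by 1.57 ± 0.19 (SE) on the log2 scale, with a 95% interval of 1.08 to 2.06 and an adjusted p of 0.0409 (limma), and its ratio ranked 5 from the top of all 16504 genes. Insig1 ranked 14 and Lss 31 on the same scale. With arrays 3 and 4 turned, a setting added for ranks after the data were seen, Dhcr7 ranked 8251, Insig1 1707 and Lss 14327.

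**Figure D2:**
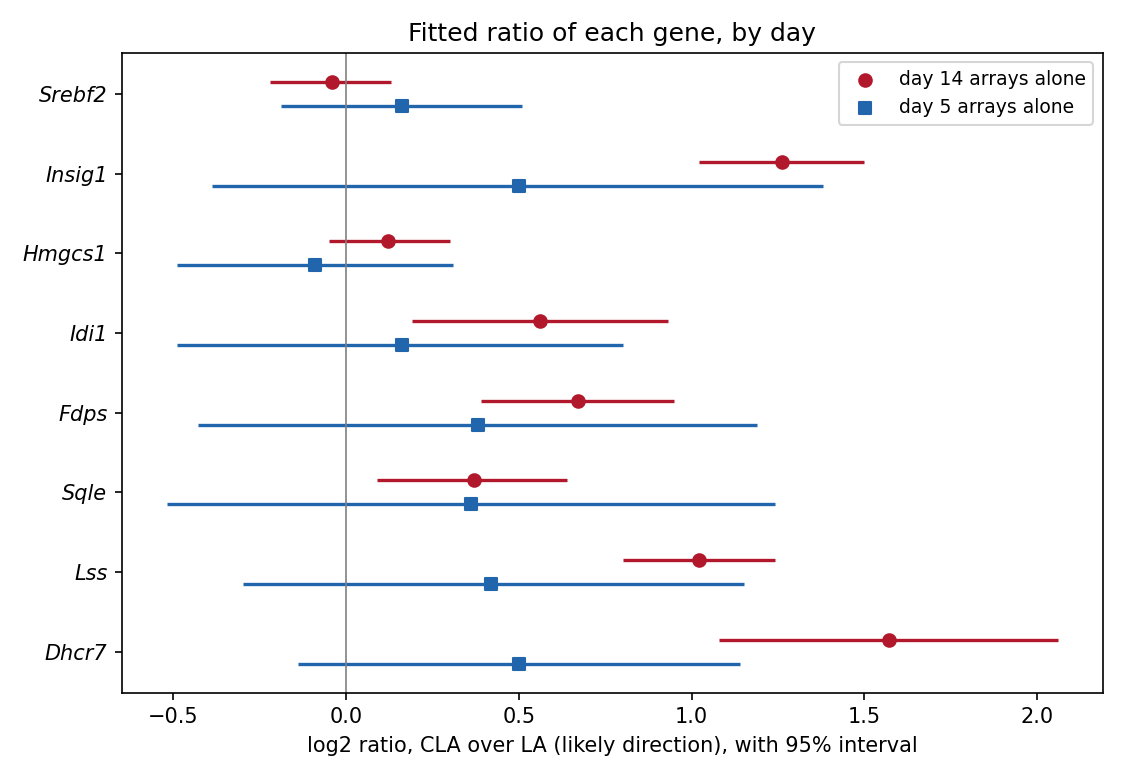
Fitted log2 ratio of CLA over LA (horizontal axis, likely direction) for each gene, from limma on the 4 day 14 arrays (red circles) and on the 4 day 5 arrays (blue squares), with 95% intervals as lines. The day 14 intervals of Dhcr7, Insig1, Lss, Fdps, Idi1 and Sqle lie above 0, and the day 5 interval of every gene spans 0.

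In order of their day 14 ratios the members were Dhcr7, Insig1, Lss, Fdps, Idi1, Sqle, Hmgcs1 and Srebf2. The 95% intervals of each pair of neighbours in that order overlapped, so the order is a description. The day 14 calls depended on arrays 1, 2 and 3. Without array 1, and likewise without array 2, none of the 3 genes passed (limma, with 6 and 4 members at an unadjusted p under 0.05). Without array 3 Insig1 alone passed, and without array 4 all 3 did. In the fit without a dye term 0 members passed, with 6 at an unadjusted p under 0.05. When all 8 arrays were fitted together with 1 shared spread, 0 members and 0% of all genes passed at day 14 in limma. In that fit 5 members were higher at an unadjusted p under 0.05, against 4.24% of all genes. The adjusted p of Dhcr7 was then 0.187, with an SE of 0.25, and that of Insig1 and Lss was 0.251. Weighting the 8 arrays by their quality instead gave 3 members as higher at day 14, Dhcr7, Insig1 and Lss (adjusted p = 0.0184, 0.0267 and 0.0243), against 1.32% of all genes.

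Turning arrays 3 and 4 changed what the set showed at day 14. A turned ratio rests on the contrast of dye orientations that the dye term takes up in the fit as deposited. It therefore cannot be told apart from a dye effect. Dhcr7 then averaged 0.00 (adjusted p = 0.998, limma), and Lss and Fdps became lower by this reading (−0.31 and −0.38, adjusted p = 0.0466 and 0.0499). Srebf2 was also lower (−0.28, adjusted p = 0.0337), whereas Hmgcs1 (0.38, adjusted p = 0.0171) and Insig1 (0.44, adjusted p = 0.0247) were higher. Those counts, 2 members higher and 3 lower, stand against 16.8% and 15% of all genes called higher and lower. Insig1 alone of the 8 members was called higher under both readings of the arrays. If instead the numerator were LA throughout, every sign in the text would be reversed and every p would stand.

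At day 5 no member rose or fell, and limma called 0% of all genes when all 4 arrays of that day were fitted. Also at an unadjusted p under 0.05 the count was 0 members, against 1.15% of all genes higher and 3.48% lower. No member was above 0 on all 4 day 5 arrays, against 2.25% of all genes. The means of the members differed between the arrays of that day more than at day 14. The mean over the 8 members was 0.519, 0.868, 0.827 and 0.551 on day 14 arrays 1 to 4, and 0.969, −0.036, 0.413 and −0.154 on day 5 arrays 1 to 4. All 8 members were above 0 on day 5 array 1 and 7 on array 3, but 3 on array 2 and 2 on array 4. On the day 14 arrays 6 or 7 were above 0. Fits with 1 array left out weigh both dye orientations equally, so the lone array counts as much as the other pair. Such a ratio is not the plain mean of the arrays left. Fitted without day 5 array 1, the day 5 ratio was 0.06 for Insig1, 0.05 for Fdps, 0.15 for Sqle, 0.10 for Lss and 0.20 for Dhcr7. Fitted without day 5 array 2, it was 0.93 for Insig1, 0.70 for Fdps, 0.75 for Lss and 0.80 for Dhcr7. Fitted without day 5 array 4, it was 0.61 for Insig1, 0.63 for Fdps, 0.77 for Sqle, 0.58 for Lss and 0.59 for Dhcr7. Results at day 5 thus depended on which array was left out. The residual spread over all genes was 0.250 log2 units at day 14 and 0.540 at day 5, so the day 5 intervals are wide. The interval of Dhcr7 at day 5, for example, ran from −0.14 to 1.14.

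The difference between days was tested directly. Dhcr7 was higher at day 14 than at day 5 by 1.07 ± 0.35 (SE) on the log2 scale, with an interval of 0.25 to 1.89, but its adjusted p was 0.892 (limma, all 8 arrays). Insig1 differed by 0.76 ± 0.36 and Lss by 0.60 ± 0.31, and the other 5 members by −0.20 to 0.40. With arrays 3 and 4 turned the difference was −0.35 for Dhcr7, −0.28 for Lss and 0.16 for Insig1, so the direction of the first 2 depends on that reading. Without day 5 array 2, the difference for Insig1 was 0.38 and that for Lss 0.39. By adjusted p, 0 members and 0% of all genes differed between days, and at an unadjusted p under 0.05 the count was 1 member, Dhcr7, against 2.81% of all genes. The rise of Dhcr7, Insig1 and Lss at day 14 is therefore not shown to be absent at day 5.

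Members did not all follow one another over the 8 arrays. Pearson's r between pairs of members, over 8 arrays that share 2 dye orientations, had a median of 0.46 over 28 pairs and ran from −0.47 for Srebf2 with Hmgcs1 to 0.93 for Fdps with Lss. Each member's r with the mean of the other 7 was 0.83 for Dhcr7, 0.78 for Idi1, 0.77 for Lss, 0.76 for Insig1, 0.66 for Fdps, 0.64 for Sqle and 0.35 for Hmgcs1. That of Srebf2 was −0.11 over the 8 arrays, but 0.48 over the 4 day 5 arrays, as for Hmgcs1. Over the 4 day 14 arrays it was −0.28, with Insig1 at −0.22, Hmgcs1 at −0.16, Fdps at 0.03 and Lss at 0.11. These correlations too depend on the reading of the dyes. With arrays 3 and 4 turned, the median r over the 28 pairs was 0.70, with a range of −0.03 to 0.97, and Srebf2 had an r of 0.23 with the mean of the others. Among the 16496 other genes, the 10 most like the members' mean over the 8 arrays were Ostc (r 0.945), Efr3b (0.931), Tm7sf2 (0.925), Zfp36l2, Inpp5d, Fndc5, Basp1, Myo1e, Aldh18a1 and Syt17 (0.901). With arrays 3 and 4 turned, 0 of these were among the 10 most alike, and their r was between 0.53 and 0.93. Tm7sf2, at rank 3, encodes a sterol reductase of the same pathway. Its log2 ratios were −0.22, 0.85, 1.01 and 0.47 on day 14 arrays 1 to 4 and 1.26, −0.26, 0.30 and −0.69 on day 5 arrays 1 to 4, and it did not pass the test at day 14 (adjusted p = 0.232, limma). The other measured enzymes of sterol synthesis outside the set were spread in their r with the members' mean. It was 0.69 for Msmo1 and Nsdhl, 0.59 for Hsd17b7, 0.50 for Mvd, 0.47 for Ebp and 0.33 for Sc5d. Cyp51 had 0.22, Fdft1 0.13, Pmvk −0.08, Mvk −0.13, Ggps1 −0.40 and Lbr −0.48. Efr3b rose at day 14 by 0.60 ± 0.09 (SE, adjusted p = 0.0499, limma).

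The other enzymes of sterol synthesis did not pass the test at day 14. Of 22 genes listed, 19 were measured, 6 of them members, and the others were not analysed here. All 19 had a median of 0.35 at day 14, with 15 above 0, and of 0.15 at day 5, against medians of 0.001 and −0.002 over all genes. Of the 13 enzymes outside the set, 9 were above 0 at day 14 with a median of 0.28, against 50.3% of all genes, and limma called 0. At an unadjusted p under 0.05, 8 of the 13 were higher and 2 lower, against 7.46% and 11.7% of all genes. The day 14 median of these 19 was −0.10 once arrays 3 and 4 were turned.

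**Figure D3:**
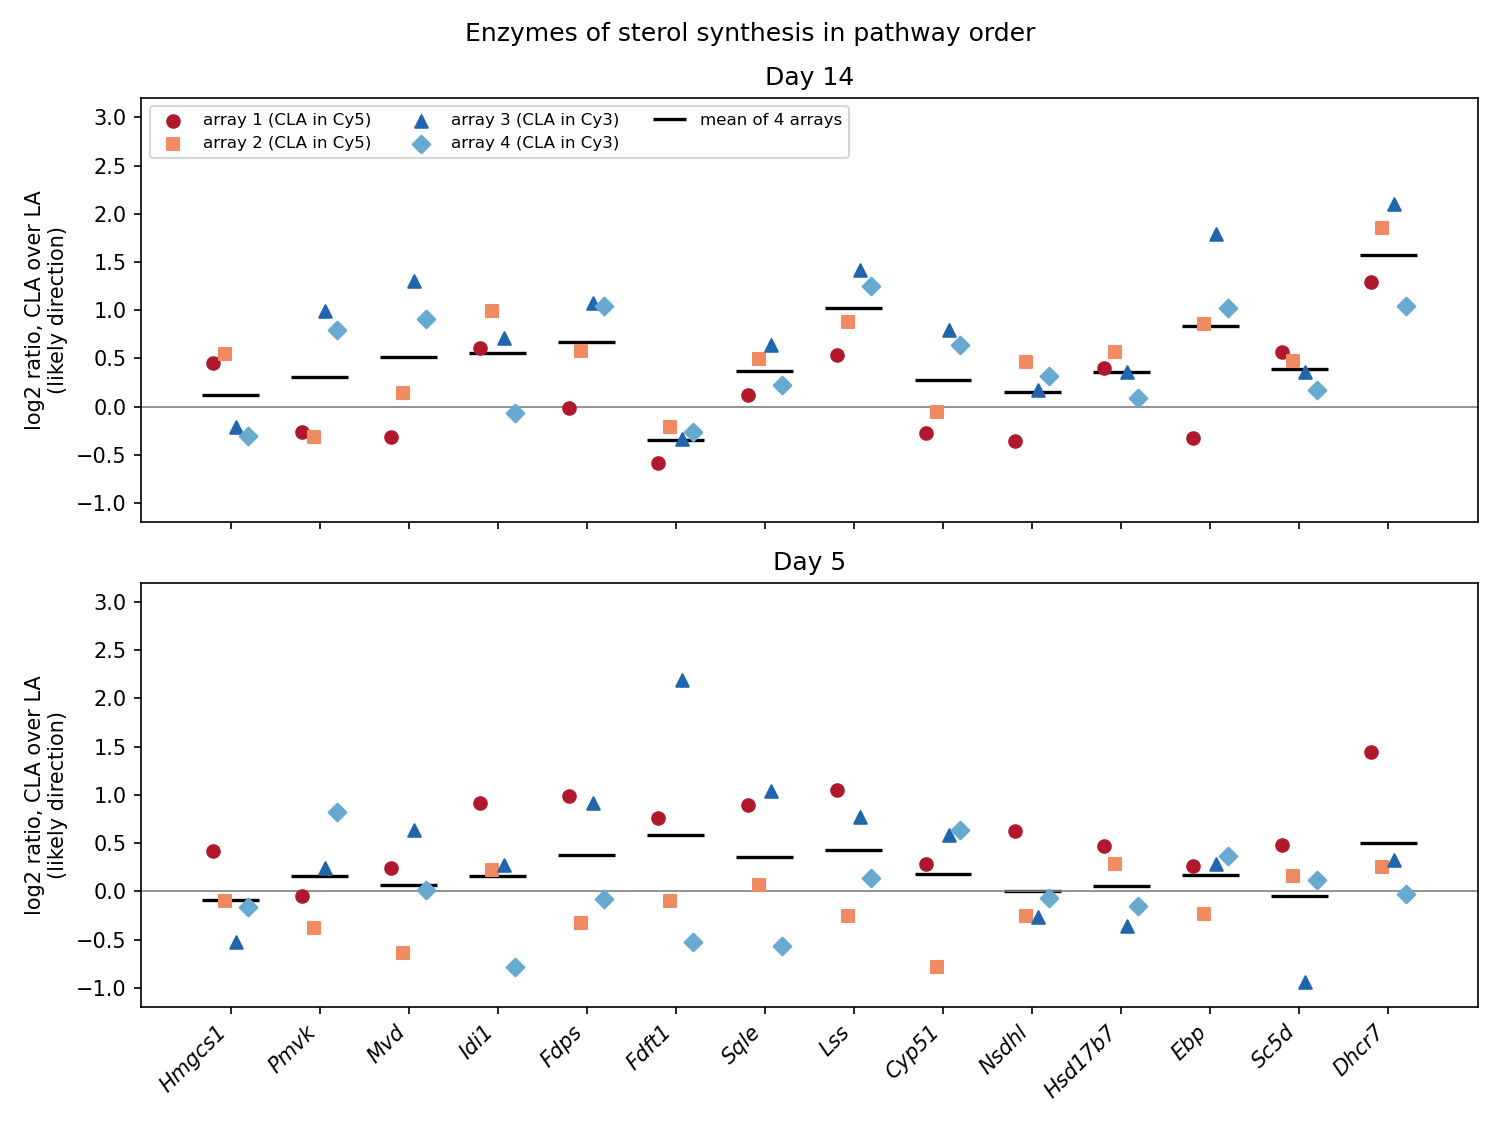
Log2 ratio of CLA over LA (vertical axis, likely direction) on each array for 14 enzymes of sterol synthesis, ordered along the pathway, with day 14 above and day 5 below. Points are single arrays and bars are means of 4 arrays. At day 14 Dhcr7 and Lss have the highest means, Fdft1 lies below 0 on all 4 arrays, and at day 5 its array 3 stands at 2.19.

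Values of single enzymes outside the set follow. Sc5d, which encodes the desaturase just before Dhcr7, had 0.57, 0.47, 0.36 and 0.17 on day 14 arrays 1 to 4 (0.39 ± 0.07 SE, adjusted p = 0.0738, limma). Ebp, the sterol isomerase, had −0.32, 0.86, 1.79 and 1.02 (0.84 ± 0.22 SE, adjusted p = 0.141), and Mvd, which makes isopentenyl diphosphate, had −0.31, 0.14, 1.30 and 0.91 (0.51 ± 0.11 SE, adjusted p = 0.0996). For both, array 1 was the lowest and array 3 the highest. Hsd17b7 and Pmvk had 0.35 ± 0.08 and 0.30 ± 0.07 (SE), and Cyp51 and Nsdhl had 0.28 ± 0.08 and 0.15 ± 0.14 (SE), with adjusted p of 0.11 to 0.612. Fdft1, the squalene synthase between Fdps and Sqle, was below 0 on all 4 day 14 arrays (−0.58, −0.21, −0.33 and −0.26, adjusted p = 0.129), but at 2.19 on day 5 array 3.

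Regulators of SREBP other than the members did not pass the test either. Of 7 measured genes outside the set, 1 was above 0 at day 14, the median was −0.21 and limma called 0. At an unadjusted p under 0.05, 3 of the 7 were lower, against 11.7% of all genes. With arrays 3 and 4 turned, 4 of the 7 were above 0 and their median was 0.21. Insig2, the sister gene of Insig1, had 0.18, 0.10, −0.88 and −0.87 on day 14 arrays 1 to 4 (−0.37 ± 0.07 SE, adjusted p = 0.0711), so its 2 dye orientations lay on opposite sides of 0, whereas Insig1 was above 0 in both. Srebf1, the gene of the SREBP form that mainly drives fatty acid synthesis, had −0.18, −0.14, −1.04 and −0.47 (−0.46 ± 0.11 SE, adjusted p = 0.116). Mbtps1, the site-1 protease that cleaves SREBP, had a mean of −0.38 ± 0.08 (SE, adjusted p = 0.0979). Scap was not analysed here.

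No sterol uptake or transport gene passed the test at day 14. Of 14 listed genes 10 were measured, and the others were not analysed here. At day 14, 6 of the 10 were above 0 with a median of 0.10, and limma called 0. At an unadjusted p under 0.05, 2 were higher and 1 lower, against 7.46% and 11.7% of all genes. Nceh1, a cholesteryl ester hydrolase, had the highest mean of those named, 0.78 ± 0.22 (SE, adjusted p = 0.152), and Lipa, the lysosomal acid lipase, had 0.68 ± 0.24 (SE, adjusted p = 0.224). Among 9 measured LXR targets and efflux genes, which answer to sterol excess, the median was 0.10. Lpcat3 rose by 0.84 ± 0.11 (SE, adjusted p = 0.043) and Apoc1 fell by 0.66 ± 0.08 on the log2 scale (SE, adjusted p = 0.0425, limma). Of all genes, 0.533% rose and 1.04% fell. Once arrays 3 and 4 were turned, the median was 0.20 for the uptake and transport genes and −0.10 for the LXR and efflux genes.

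Among the fatty acid synthesis targets of SREBP, 2 genes rose and 1 fell at day 14, against 0.533% and 1.04% of all genes. Of 17 measured genes, Me1, the malic enzyme that supplies NADPH, rose by 1.10 ± 0.12 (SE, adjusted p = 0.0339), and Acss2, an acetyl-CoA synthetase, rose by 0.93 ± 0.12 (SE, adjusted p = 0.0432). Thrsp, a lipogenic nuclear protein of adipocytes and liver, fell by 1.09 ± 0.15 on the log2 scale (SE, adjusted p = 0.047). The median of the 17 was 0.08 at day 14, and −0.07 with arrays 3 and 4 turned. Me1 had 0.91, 1.47, 0.82 and 1.19 on day 14 arrays 1 to 4, above 0 in both dye orientations, as did Acss2 with 0.94, 1.43, 0.89 and 0.44.

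Markers of adipocytes and endothelium fell in part at day 14, and their part in the results of the sterol genes was not tested. Of 18 measured adipocyte markers, 3 were above 0 at day 14, the median was −0.62, and 6 fell, among them Mest, Nnat, Car3 and Plin4. At the same adjusted p under 0.05, 1.04% of all genes fell (limma). On the log2 scale Nnat fell by 4.28 and Car3 fell by 2.93 (adjusted p = 0.0202 and 0.0206, limma). On day 14 arrays 1 to 4 Nnat had −3.05, −4.17, −5.62 and −4.28, and Car3 had −2.15, −2.49, −4.23 and −2.84. As deposited, both genes were below 0 in both dye orientations. They were named for their small day 14 p, and their bearing on the direction of the ratios was not tested. Of 19 measured macrophage markers, 18 were above 0 at day 14 with a median of 0.62, but 0 passed (limma). At an unadjusted p under 0.05, 18 were higher, whereas 7.46% of all genes were higher and 11.7% lower. Of 13 endothelial markers, 0 were above 0, the median was −0.37, and 3 fell, Tie1, Ramp2 and Cldn5. These 3 medians became 0.46, 0.28 and −0.27 once arrays 3 and 4 were turned. Of 9 mesothelial markers, 0 were above 0, the median was −0.39, and 1 fell, Krt19, whereas 6 were above 0 with a median of 0.03 once arrays 3 and 4 were turned. On single arrays the adipocyte median was −0.50, −0.68, −1.15 and −0.67 on day 14 arrays 1 to 4, and −1.14, 0.09, −1.65 and 0.84 on day 5 arrays 1 to 4. The 2 day 5 arrays on which most sterol genes were above 0 were those with adipocyte markers below 0. The median of 13 epididymis and testis markers, of which 0 passed at day 14 (limma, 1 higher and 2 lower at an unadjusted p under 0.05), was 3.60 on day 5 array 3 and lay between −0.37 and 0.38 on the other 7 arrays. On day 5 array 3, 8 of these 13 genes were above 0. Smcp was at 3.60 there, whereas Lcn5 was at −2.06, Rnase10 at −1.02 and Lcn8 at −0.43. Single genes of this list stood apart on other arrays too. On day 5 array 1, where the mean of the sterol genes was highest, Lcn5 was at 2.83, Rnase10 at 2.30 and Lcn8 at 2.18, and Lcn5 was at −5.03 on day 14 array 3 and at −2.45 on day 14 array 2. Fitted without day 5 array 3, the day 5 ratio was −0.04 for Sqle, −0.11 for Idi1 and 0.13 for Fdps. With array 3 the ratios were 0.36, 0.16 and 0.38. In the fit without it, array 4 alone stood for the Cy3 orientation and weighed as much as arrays 1 and 2 together. Macrophage medians were 1.29, 0.54, 0.66 and 0.16 on day 14 arrays 1 to 4, and 0.74, 0.10, −0.24 and −0.05 on day 5 arrays 1 to 4.

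**Figure D4:**
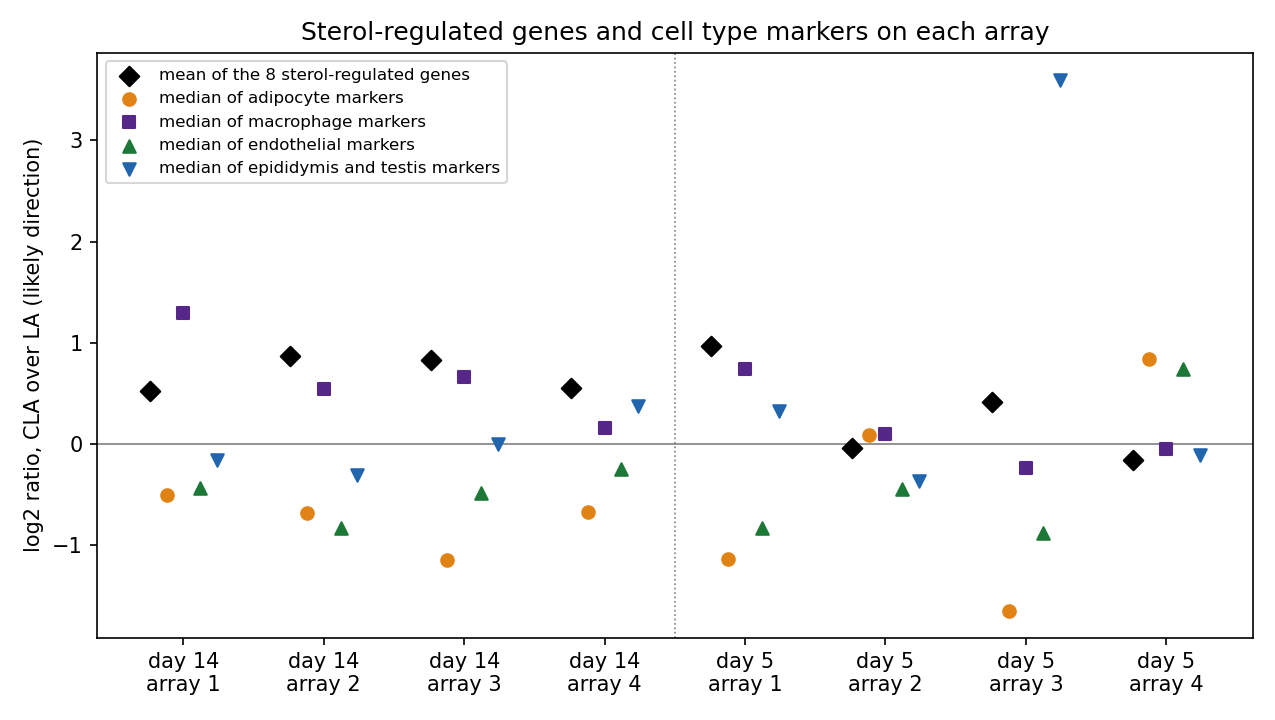
Log2 ratio of CLA over LA (vertical axis, likely direction) on each of the 8 arrays (horizontal axis, day 14 left and day 5 right). Black diamonds are the mean of the 8 sterol-regulated genes, and the other symbols are medians of marker lists for adipocytes, macrophages, endothelium, and epididymis and testis. The mean of the sterol genes is 0.519 to 0.868 on the day 14 arrays, and the epididymis and testis median reaches 3.60 on day 5 array 3.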

How the data were processed

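Per the labels, 8 arrays of 2 channels, 4 per day, compared epididymal fat of CLA-fed and LA-fed polygenic obese mice, and groups were taken from the sample titles. The table deposited by the authors holds 1 value for each of 22393 probes on each array, with 0 missing. These deposited values were taken as log10 ratios, a unit inferred from the values. The sources used here do not name the scanner, background treatment or normalization, and no intensities were used, so signal over background is unknown. Of the probes, 18218 carried 1 gene symbol in the platform annotation, 16 several and 4159 none. A gene's value was the mean of its probes with 1 symbol (16504 genes, 1193 with several probes).

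Fits of the log2 ratios used lmFit and eBayes of limma 3.58.1 (R 4.3.3) with a dye term, per day and over all 8 arrays, and adjusted by Benjamini-Hochberg over all genes. The fitting code was tested on simulated data. Named are all 8 members, genes of 10 lists chosen among the 4 with the smallest day 14 p in each, 12 further genes of the pathway where measured, and the 10 genes most like the members' mean over the arrays. The 8 members, the gene lists and the fit of each day alone were chosen with earlier results of these data known.

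Array numbers recur on both days. Deviations from the day means correlated for arrays of the same number (r 0.39, 0.64, 0.36 and 0.50 for numbers 1 to 4), which by the criterion used pairs them, but a number also marks a dye orientation, and with the dye removed r was −0.38 and 0.02. The labels state no pairing.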

Additional observations from a re-analysis of the deposited data

Results flagged for a closer look

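In 144 sets of 4 arrays (1 gene or marker list on 1 day), 3 had an array farther from the rest than Dixon's criterion allows, and chance alone gives about 1 in 20. None was of a member gene. Srebf1 stood at −1.49 on day 5 array 3, below the other 3 arrays of that day. The median of the epididymis and testis markers was highest on the same array, though Lcn5, Rnase10 and Lcn8 were below 0 there. Apoc1 stood at −0.39 on day 14 array 4, above the other 3. Lgmn, a lysosomal protease used as a macrophage marker, stood at 1.06 on day 5 array 1, where the mean of the sterol genes was highest too.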

How the results depend on the processing

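Counts are of the 8 members passing an adjusted p under 0.05 in limma. At day 14, with the day 14 arrays alone, the count was 3, and it was 3 with arrays centred or scaled and when the values were taken as log2 already (the log2 ratios are then smaller, Dhcr7 at 0.47). Without a dye term it was 0 (1 gene of all), and with arrays 3 and 4 turned it was 5 (5248 genes of all, against 260). Leaving out 1 array gave 0 to 3 (1 to 156 genes of all), and the fit of probes gave 2, Dhcr7 having an adjusted p of 0.0647. Dhcr7 ranged over 1.31 to 1.84, Insig1 over 1.16 to 1.36 and Lss over 0.94 to 1.11 when 1 array was left out. With all 8 arrays the day 14 count was 0, and 3 with array weights (584 genes of all). Array weights on day 5 arrays 1 to 4 were 0.64, 3.13, 0.18 and 0.47. The count for day 5 and for day 14 minus day 5 was 0 under every alternative run. With the replicate block, the paired fit by array number, it was 0 for day 14, for day 5 and for their difference, Dhcr7 differing by 1.07 (adjusted p = 0.932), so the block changed no call. Signs of members reversed as follows, and the cause was not tested. With arrays 3 and 4 turned, Fdps was −0.38, Sqle −0.06 and Lss −0.31 at day 14. At day 5 the same turning gave Hmgcs1 0.25, Fdps −0.05 and Lss −0.03. For day 14 minus day 5 it gave Idi1 −0.17, Fdps −0.34, Sqle −0.19, Lss −0.28 and Dhcr7 −0.35. With arrays scaled to one spread, Hmgcs1 at day 5 was 0.01 and Sqle for the difference between days −0.04, or −0.01 with arrays centred. With array weights, Insig1 was −0.04 and Idi1 −0.02 at day 5. Leaving out 1 array moved Idi1 at day 5 over −0.11 to 0.42 (all 8 arrays −0.02 to 0.40), Hmgcs1 over −0.22 to 0.04 (−0.19 to 0.04) and Sqle over −0.04 to 0.77. In the fit of all 8 arrays, leaving out 1 array moved Srebf2 at day 14 over −0.13 to 0.03. With the day 14 arrays alone, Srebf2 stayed at −0.08 to −0.01. Sqle for the difference moved over −0.36 to 0.29. A fit that leaves 1 array in a dye orientation assumes that it varies like the others.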
